A study of Mus musculus with 6 samples.

Results

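Fatty acid oxidation begins with the carnitine shuttle of the mitochondrion. Carnitine palmitoyltransferase 1, on the outer membrane, joins long-chain acyl groups to carnitine and is held back by malonyl-CoA, the carrier Slc25a20 moves the acylcarnitine across the inner membrane, and Cpt2 returns the acyl group to coenzyme A for beta-oxidation. The outer enzyme has 3 isoforms: Cpt1a, the liver isoform that many cell types use, Cpt1b, the isoform of skeletal and heart muscle, and Cpt1c, a mainly neuronal isoform with little catalytic activity. The genes described here are these isoforms with Slc25a20, Cpt2, the acyl-CoA dehydrogenases Acadvl, Acadl and Acadm, the trifunctional protein subunit Hadha, and Pdk4, the kinase that shuts pyruvate dehydrogenase and so favours fat as fuel. They were taken by symbol, 10 of 25220 genes listed, and all 10 had a row and passed the filter on low values, a mean over the libraries of 0.5 RPKM or more (reads scaled to transcript length and library size). The set was chosen by the RPKM values of these same libraries, with the genotype difference of Cpt1b against Cpt1a already known, so the genotype values of these 10 genes are a description and no test is drawn from them.

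Poly(A) RNA was sequenced from primary myoblasts, the precursor cells grown out of mouse hindlimb muscle, in Ham's F10 with 10% horse serum and 2.5 ng/mL bFGF. The Psat1 cKO libraries (n = 3) came from cells labelled Pax7 CRE+/-;Psat1fl/fl and the Ctrl libraries (n = 3) from cells labelled Pax7 +/+; Psat1fl/fl. Psat1 is the aminotransferase of serine synthesis, floxed in both groups. Cre, driven from the Pax7 locus of satellite cells, was carried by the Psat1 cKO cells alone, so effects of Cre and of the deletion cannot be told apart. The labels do not give age or sex or say whether Cre needs or received an inducer. Nor do they say whether replicates came from separate animals or cultures. Errors and p-values therefore measure the spread between these samples, which may be technical in part.

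Psat1 itself stood at 63.5, 74.7 and 71.8 RPKM in Psat1 cKO and at 91.8, 93.4 and 100.2 RPKM in Ctrl. The means were 70.0 and 95.1 RPKM, a log2 fold change of -0.44 (SE 0.07), so much of the message remained. These values, taken over the whole gene, do not give the extent of the deletion. Steps between the lowest values put the depth at 19500000 to 35300000 reads in Psat1 cKO, where the third library was shallowest, and at 33700000 to 43200000 reads in Ctrl. Xist was expressed in Psat1 cKO 1, Psat1 cKO 2 and Ctrl 1. The Y-linked Ddx3y was expressed in Psat1 cKO 3, Ctrl 2 and Ctrl 3. So sex differed among the libraries and was not balanced between the groups. Each group held libraries of both kinds, so its libraries did not all come from a single animal. The myoblast markers were present, with Myod1, the myogenic transcription factor, between 572 and 636 RPKM in Psat1 cKO and between 634 and 780 RPKM in Ctrl. Of 7 adipocyte markers, which matter for genes of fat metabolism, Plin1, Cidec and Retn were listed at 0 in every library and Adipoq reached 0.0481 RPKM at most. Fabp4, a fatty acid binding protein of adipocytes that endothelial cells also express, had 0.416, 1.22 and 5.40 RPKM in Psat1 cKO and 0.609, 0.521 and 1.26 RPKM in Ctrl, so Psat1 cKO 3 stood above the other libraries.

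The 3 Cpt1 isoforms are encoded on different chromosomes, and their coding sequences differ at many positions. In coding sequence Cpt1b and Cpt1a were identical at 67.3% of 2300 aligned bases and Cpt1b and Cpt1c at 63.5% of 2258. The longest run of bases shared without a mismatch was 20 between Cpt1b and Cpt1a and 23 between Cpt1b and Cpt1c. The stretch printed here holds the first of these runs, the longest that the coding sequences of Cpt1b and Cpt1a share without a mismatch. It is the message strand, 5′ to 3′, of the coding sequence (GRCm38, GENCODE M21), and each copy crosses an intron. Capitals in Cpt1b mark bases shared with Cpt1a, and capitals in Cpt1a and Cpt1c mark bases shared with Cpt1b.
Cpt1b: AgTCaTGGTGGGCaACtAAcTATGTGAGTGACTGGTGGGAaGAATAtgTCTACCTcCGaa
Cpt1a: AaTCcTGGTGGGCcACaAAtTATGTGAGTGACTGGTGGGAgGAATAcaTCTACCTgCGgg
Cpt1c: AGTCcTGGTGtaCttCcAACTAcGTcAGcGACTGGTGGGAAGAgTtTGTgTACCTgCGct
The Cpt1b copy lies within chr15:89423533-89423678 (minus strand), the Cpt1a copy within chr19:3362200-3364514 (plus strand) and the Cpt1c copy within chr7:44967096-44970427 (minus strand). Of the 60 bases shown, Cpt1a shared 49 with Cpt1b and Cpt1c shared 45.

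Among the 10 genes, Cpt1b was the lowest in level and the one that differed most between the genotypes. Cpt1b (Entrez 12895, RefSeq on GRCm38, as for the positions that follow, chromosome 15, 89416405 to 89425862, minus strand) stood at 1.28, 1.85 and 1.43 RPKM in Psat1 cKO and at 3.05, 3.92 and 2.61 RPKM in Ctrl. Every Psat1 cKO library lay below every Ctrl library. The means were 1.52 ± 0.299 RPKM in Psat1 cKO and 3.19 ± 0.668 RPKM in Ctrl (SD, n = 3 each), so the Psat1 cKO mean was 47.6% of the Ctrl mean. On the scale of log2 of RPKM + 0.5, which understates changes of low genes, the log2 fold change of Psat1 cKO over Ctrl was -0.87 (standard error, SE, 0.15). In the limma fit over all 12251 genes, where 0.49% (60 genes) were lower past a Benjamini-Hochberg adjusted p of 0.05, Cpt1b lay among those 60. Since this contrast chose the gene, its place there is a description and nothing is read from it. At the estimated depths its values correspond to about 131, 155 and 80 reads in Psat1 cKO and 298, 448 and 326 reads in Ctrl, for a transcript of 2895 bases. Bulk RNA does not separate fewer cells with Cpt1b from less Cpt1b per cell.

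That place depended on the choice of libraries. Leaving out 1 library at a time put Cpt1b outside the threshold in 5 of 6 cases: without Psat1 cKO 1 (log2 fold change -0.78), Psat1 cKO 2 (-0.98), Psat1 cKO 3 (-0.84), Ctrl 1 (-0.89) or Ctrl 2 (-0.73). It stayed past the threshold without Ctrl 3 (-0.98). Over all genes the number lower past the threshold also fell in these fits, from 60 to between 12 and 55. Losing the call is thus not particular to Cpt1b. Because the groups do not overlap, leaving out libraries could not have turned the sign. In the authors' deposited table of the same comparison Cpt1b had a ratio of 0.477 and q = 0.216. Compared within the libraries with Xist, Psat1 cKO 1 and 2 against Ctrl 1, the log2 fold change was -0.80, and within those with Y-linked expression, Psat1 cKO 3 against Ctrl 2 and 3, it was -0.95, in fits where the lone library is assumed to vary like the other group, and neither passed the threshold. The call was also lost without the filter on low values and with the split as a covariate, both at -0.87.

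Cpt1b shares its locus with a read-through gene, which bears on how its reads were assigned. Chkb, for choline kinase beta, ends 486 bases upstream of Cpt1b on the same strand, and GENCODE annotates Gm44502 (chromosome 15, 89416405 to 89429696) across both, with 2744 of the 2895 exonic bases of Cpt1b (94.8%) also exonic in Gm44502. The deposited table gives Gm44502 a row of its own, at 1.61, 1.15 and 0.702 RPKM in Psat1 cKO and at 2.15, 1.33 and 0.979 RPKM in Ctrl, and these groups overlap. The other 1552 of its 4296 exonic bases lie in exons of Chkb and 0 lie outside both genes, so the row has no exonic sequence of its own and may hold reads of Cpt1b or of Chkb. How reads in the shared exons were divided is not given in the sources used here, so this row and any sum with it are not levels of a separate transcript. Adding both rows gave 2.89, 3.0 and 2.13 RPKM in Psat1 cKO and 5.20, 5.25 and 3.59 RPKM in Ctrl, again with no overlap between the groups. The log2 fold change of the sum was -0.70 (SE 0.16), and the sum was not past the threshold. The Gm44502 row made up 55.7%, 38.3% and 33.0% of that sum in Psat1 cKO and 41.4%, 25.3% and 27.3% in Ctrl. Chkb stood at 8.73, 8.92 and 9.12 RPKM in Psat1 cKO and at 8.13, 10.0 and 9.26 RPKM in Ctrl, with overlapping groups. Syce3, the neighbour on the other side and a gene of the meiotic synaptonemal complex, was listed at 0 in every library. Gm44502 was chosen for its position after its values were seen.

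**Figure D1:**
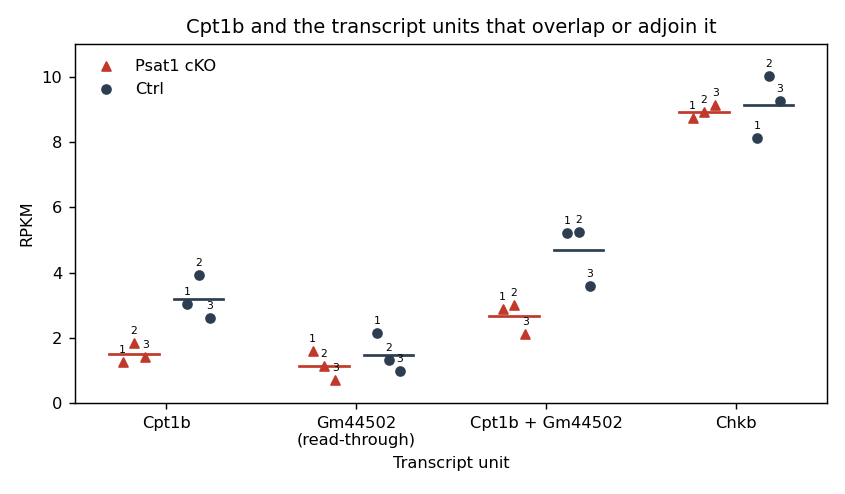
RPKM (vertical axis, linear) of Cpt1b, the read-through Gm44502, their sum and Chkb. Each point is 1 library, labelled by replicate, with Psat1 cKO as red triangles left of Ctrl as dark circles, and lines mark group means. Cpt1b and the sum do not overlap between the groups, while Gm44502 and Chkb do.

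Cpt1a, the isoform that carries most of the Cpt1 message in these myoblasts, stayed close to its Ctrl level. Cpt1a (Entrez 12894, chromosome 19, 3322326 to 3385735) stood at 37.6, 36.6 and 34.1 RPKM in Psat1 cKO and at 36.1, 37.5 and 40.6 RPKM in Ctrl. The groups overlapped, and the log2 fold change was -0.08 (SE 0.06). Per length, the Cpt1a level was 29.4, 19.7 and 23.9 times that of Cpt1b in Psat1 cKO and 11.8, 9.57 and 15.6 times in Ctrl. These ratios, and the difference and isoform shares that follow, count the Cpt1b row alone, without the Gm44502 row. They therefore depend on how reads in the shared exons were divided, which is not known. The difference Cpt1b minus Cpt1a, on log2 of RPKM + 0.5, averaged -4.19 ± 0.22 in Psat1 cKO and -3.40 ± 0.31 in Ctrl (SD, n = 3 each), a shift of -0.79.

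Cpt1c was well expressed for an isoform known mainly from neurons. Cpt1c (Entrez 78070, chromosome 7, 44958483 to 44974880) stood at 17.2, 15.8 and 16.3 RPKM in Psat1 cKO and at 16.4, 16.02 and 15.4 RPKM in Ctrl. These values overlap, with a log2 fold change of 0.04 and a standard error of 0.05. Of the summed RPKM of the isoforms, Cpt1b supplied 2.82% ± 0.573 in Psat1 cKO and 5.59% ± 1.19 in Ctrl, Cpt1c 30.5% ± 1.19 in Psat1 cKO and 27.9% ± 1.62 in Ctrl, and Cpt1a 66.7% ± 0.866 in Psat1 cKO and 66.5% ± 2.39 in Ctrl (SD, n = 3 each). The sum was 54.1 ± 2.1 RPKM in Psat1 cKO and 57.2 ± 1.55 RPKM in Ctrl. So the muscle isoform was a minor part of the Cpt1 message in both genotypes.

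**Figure D2:**
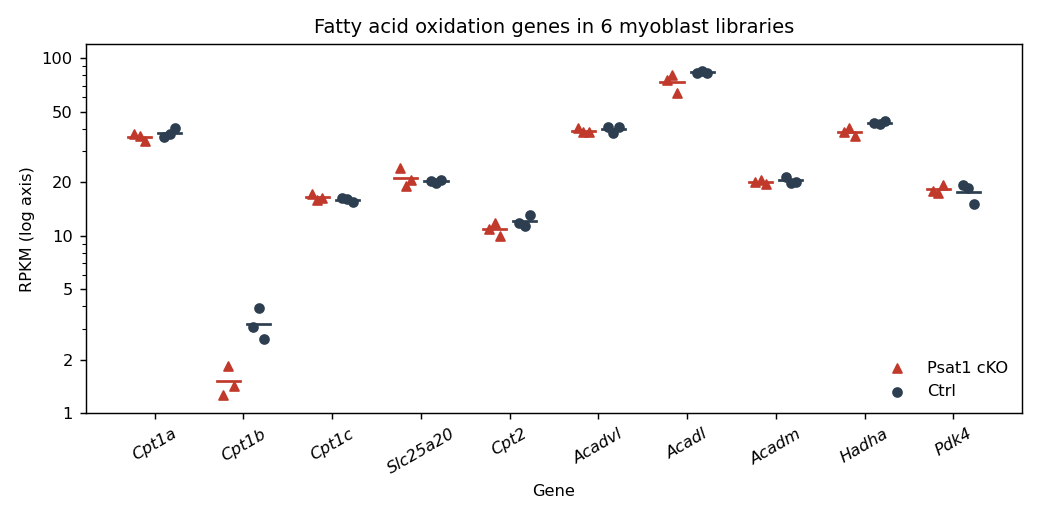
RPKM on a log axis for the 10 genes, ordered by their step in the pathway. Each point is 1 library, Psat1 cKO as red triangles left of Ctrl as dark circles (3 each), and lines mark group means. Cpt1b lies below all the others and its groups are apart, Acadl and Hadha differ slightly without overlap, and the other 7 overlap.

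The rest of the carnitine shuttle differed less. Slc25a20, the carnitine-acylcarnitine carrier (chromosome 9, 108662136 to 108684642), stood at 23.9, 19.1 and 20.6 RPKM in Psat1 cKO and at 20.3, 19.8 and 20.7 RPKM in Ctrl. The groups overlapped, and its log2 fold change was 0.06 (SE 0.08) and, without Psat1 cKO 1, the highest library, -0.03. Cpt2, the inner membrane enzyme (chromosome 4, 107903982 to 107923589), stood at 10.9, 11.8 and 9.92 RPKM in Psat1 cKO and at 11.8, 11.3 and 13.1 RPKM in Ctrl, with overlapping groups and a log2 fold change of -0.14 (SE 0.08).

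In beta-oxidation proper, Acadl and Hadha were slightly lower in Psat1 cKO with no overlap of the groups, as were 10.5% of all genes tested, and nothing is read from this count. Acadl, the long-chain acyl-CoA dehydrogenase of rodent tissues (chromosome 1, 66830839 to 66863309), was the most abundant of the 10 messages per length, at 75.4, 80.03 and 63.8 RPKM in Psat1 cKO and at 82.6, 84.3 and 82.8 RPKM in Ctrl. Its log2 fold change was -0.19 (SE 0.08), and -0.10 without Psat1 cKO 3, the lowest library. Hadha, which carries the hydratase and long-chain dehydrogenase steps (chromosome 5, 30119423 to 30154980), stood at 38.5, 40.4 and 36.5 RPKM in Psat1 cKO and at 42.8, 42.4 and 44.4 RPKM in Ctrl, a log2 fold change of -0.17 (SE 0.05). Hadhb, the thiolase subunit of the same complex, had 30.6, 29.1 and 29.6 RPKM in Psat1 cKO and 32.5, 31.9 and 31.2 RPKM in Ctrl (log2 fold change -0.10, SE 0.05), also with every Psat1 cKO value below every Ctrl value. Neither Acadl nor Hadha was past the threshold in the fit over all genes.

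Acadvl and Acadm, the very-long-chain and medium-chain dehydrogenases on either side of Acadl in chain length, overlapped between the genotypes. Acadvl (chromosome 11, 70010183 to 70015428) stood at 40.5, 38.2 and 38.3 RPKM in Psat1 cKO and at 40.9, 37.9 and 40.9 RPKM in Ctrl. Acadm (chromosome 3, 153922353 to 153944643) stood at 20.2, 20.5 and 19.5 RPKM in Psat1 cKO and at 21.5, 19.93 and 19.9998 RPKM in Ctrl. Their log2 fold changes were both -0.03, with SE of 0.05 each.

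Pdk4, which fasting, fatty acids and PPAR receptors raise in muscle (chromosome 6, 5483351 to 5496278), stood at 17.8, 17.5 and 19.4 RPKM in Psat1 cKO and at 19.2, 18.7 and 15.1 RPKM in Ctrl. The groups overlapped, and the log2 fold change of 0.05 (SE 0.09) changed sign without Ctrl 3, the lowest library, to -0.05, and was -0.12 among the libraries with Xist and 0.20 among those with Y-linked expression.

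Across the 10 genes, 1 was past the threshold and lower and 0 were higher, where 2.29% of all genes were past it in either direction. The groups did not overlap for 3 of the 10 (Cpt1b, Acadl and Hadha), each lower in Psat1 cKO, where 10.5% of all genes tested were lower without overlap. Since the genes were chosen with this comparison known, nothing is read from these counts. The median log2 fold change was -0.05 over the 10 genes and -0.01 over all genes tested. Apart from Cpt1b, the other 9 lay between -0.19 and 0.06.

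In order of level over the 6 libraries, per length, Acadl led with a mean of 78.1 RPKM, followed by Hadha, Acadvl and Cpt1a between 40.8 and 37.1 RPKM, Slc25a20 and Acadm at 20.7 and 20.3, Pdk4 and Cpt1c at 17.9 and 16.2, Cpt2 at 11.5 and Cpt1b at 2.36. The ranges of neighbours overlapped for Hadha and Acadvl, Acadvl and Cpt1a, Slc25a20 and Acadm, and Pdk4 and Cpt1c. Within libraries, Acadvl was above Cpt1a in 6 of 6, Pdk4 above Cpt1c in 5 of 6, Hadha above Acadvl in 4 of 6 and Slc25a20 above Acadm in 3 of 6. Acadl lay at the 93.2 percentile of level among the genes tested and Cpt1b at the 19.0 percentile. The lowest Psat1 cKO value was in the third library, the shallowest, for 5 of the 10 genes, against 42.9% of all genes tested.

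The genotype difference was next compared between the sides of the Xist and Y-linked split, a contrast that played no part in choosing the genes. None of the 10 genes had an interaction of genotype and split past the threshold (limma, adjusted over all genes). At an unadjusted p under 0.05 there was 1, Acadl, with a more negative difference among the Y-linked libraries (interaction -0.30, SE 0.10, limma adjusted p = 0.666), where 7.44% of all genes had one. The Acadl value rests on 1 library, since the Y-linked side has Psat1 cKO 3 alone for its genotype, which held the lowest Acadl level. The Acadl difference was -0.09 among the libraries with Xist and -0.39 among those with Y-linked expression. For Cpt1b the interaction was -0.15 (SE 0.37, limma adjusted p = 0.925), an error wide enough to hold sizeable differences. Among all genes 1 passed, 0.00816% of those tested. It was Erdr1, whose copies lie in repeated sequence. This fit has 2 residual degrees of freedom and 1 library alone in a genotype on each side.

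The wider pathway was described by 8 lists of fatty acid uptake, transport, oxidation and control, which hold 105 genes besides the 10. Of these 92 were tested, and the other 13 were below the filter or, for Tmlhe, not analysed here. Of the 92, 0 were past the threshold (limma, adjusted over all genes). At an unadjusted p under 0.05, 3 were higher and 11 lower in Psat1 cKO, where 7.56% of all genes were higher and 6.82% lower, 14.4% together. In 16 of the 92 every Psat1 cKO value was below every Ctrl value and in 5 above, where 10.5% and 10% of all genes were. The median log2 fold change over the 92 was -0.04. The lists were drawn up with earlier results of these data known.

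Among the genes of uptake and activation, the lowest p belonged to Slc27a1, a fatty acid transport protein of muscle, Fabp3, the heart and muscle fatty acid binding protein, and Acsl1, an acyl-CoA synthetase. Fabp3 had 27.8, 29.8 and 24.1 RPKM in Psat1 cKO and 52.8, 54.9 and 32.1 RPKM in Ctrl, so that the groups did not overlap although Ctrl 3 stood far below the other controls. Its log2 fold change was -0.73 (SE 0.19, limma adjusted p = 0.123). Of the fits leaving out 1 library, it passed the threshold only without Ctrl 3, at -0.98 (limma, adjusted p = 0.0214). Slc27a1 averaged 4.55 ± 0.325 RPKM in Psat1 cKO and 5.87 ± 0.345 RPKM in Ctrl (log2 fold change -0.34, limma adjusted p = 0.0704), and Acsl1 averaged 4.69 ± 0.818 RPKM in Psat1 cKO and 6.30 ± 0.844 RPKM in Ctrl (-0.39, limma adjusted p = 0.234). The list as a whole had 0 of 13 past the threshold and a median of -0.02.

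For carnitine supply and malonyl-CoA control, 0 of 6 and 0 of 9 tested genes passed, with medians of -0.05 and -0.16. Aldh9a1, of carnitine synthesis, had a log2 fold change of -0.20 (limma, adjusted p = 0.449). Slc25a29 and Slc22a4 belong to families that include carnitine carriers, which does not make them carnitine carriers themselves. Their log2 fold changes were -0.16 and 0.22 (limma, adjusted p = 0.514 and 0.536). Acacb, the acetyl-CoA carboxylase whose malonyl-CoA acts on Cpt1 at the mitochondrion, was below the filter at 0.247, 0.240 and 0.169 RPKM in Psat1 cKO and 0.423, 0.358 and 0.270 RPKM in Ctrl. Prkab1 and the muscle subunit Prkag3, both of AMP-activated kinase, had every Psat1 cKO value below every Ctrl value, with log2 fold changes of -0.16 and -0.38 (limma, adjusted p = 0.227 and 0.233). Prkaa2, a catalytic subunit of the same kinase, was at -0.32 (limma, adjusted p = 0.419).

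Among further genes of mitochondrial beta-oxidation, 0 of 20 passed and the median was -0.04. Acot2, a mitochondrial thioesterase that frees fatty acids from coenzyme A, averaged 7.60 ± 0.900 RPKM in Psat1 cKO and 10.0 ± 0.278 RPKM in Ctrl, with no overlap and a log2 fold change of -0.38 (SE 0.08, limma adjusted p = 0.0705). Among the fits leaving out 1 library, Acot2 passed only without Psat1 cKO 1, at -0.46 (limma, adjusted p = 0.0424). Acad11, an acyl-CoA dehydrogenase, was lower without overlap at -0.24 (limma, adjusted p = 0.0845), and the thioesterase Acot13 higher without overlap at 0.13 (limma, adjusted p = 0.354). In the peroxisome 0 of 9 tested genes passed, with a median of 0.00, and Amacr, Scp2 and Acox3 had the lowest p, at -0.14, -0.06 and -0.10 (limma, adjusted p = 0.426, 0.594 and 0.630).

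No tested regulator or target of the PPAR receptors passed, and those with the lowest p lay in both directions. Ppard, the main PPAR of muscle, averaged 8.59 ± 0.506 RPKM in Psat1 cKO and 7.58 ± 0.269 RPKM in Ctrl, with no overlap and a log2 fold change of 0.17 (limma, adjusted p = 0.268). Pparg was at -0.27 (limma, adjusted p = 0.336) and Rxrb at -0.08 (limma, adjusted p = 0.441), and Ppara was below the filter, at no more than 0.339 RPKM in any library. Of the targets, Angptl4, a secreted lipase inhibitor, had 31.7, 39.0 and 37.3 RPKM in Psat1 cKO and 28.4, 27.9 and 29.0 RPKM in Ctrl, with every Psat1 cKO value higher. Its log2 fold change was 0.33 (SE 0.08, limma adjusted p = 0.0845). With 1 library left out, Angptl4 passed only in the fit without Psat1 cKO 1, at 0.42 (limma, adjusted p = 0.0262). Plin2, the lipid droplet coat protein, was at 0.16 without overlap (limma, adjusted p = 0.259), and Fgf21 at -0.40 (limma, adjusted p = 0.361). Ucp3, the muscle uncoupling protein, was below the filter at 0.254, 0.240 and 0.271 RPKM in Psat1 cKO and 0.823, 0.672 and 0.406 RPKM in Ctrl. In both lists 0 genes passed, of 13 and 9 tested, with medians of -0.07.

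In the control of pyruvate dehydrogenase, 0 of 13 genes other than Pdk4 passed. Each of the 13 lay below 0 on the log2 scale (median -0.05), where 6632 of all 12251 genes did, while Pdk4 was at 0.05. Pdk2, a kinase of the same family as Pdk4, was lower without overlap at -0.30 (limma, adjusted p = 0.302), Pdk1 was at -0.29 (limma, adjusted p = 0.313), and Pdhb, a subunit of the enzyme, was lower without overlap at -0.12 (limma, adjusted p = 0.308).

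**Figure D3:**
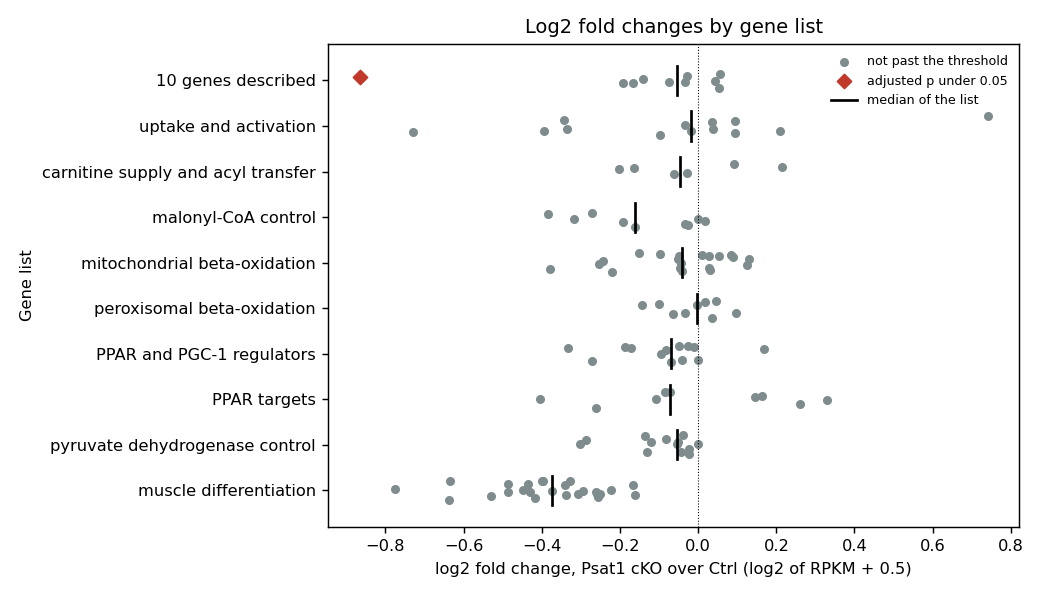
Log2 fold change of Psat1 cKO over Ctrl on log2 of RPKM + 0.5 (horizontal axis) for each tested gene of each list (vertical axis). Grey points are genes not past an adjusted p of 0.05, the red diamond is Cpt1b, and black bars are list medians. The pathway lists centre near 0, with medians from -0.16 to 0, and the muscle differentiation list lies below 0 throughout, with a median of -0.38.

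Cpt1b is a muscle isoform that rises as myoblasts become muscle fibres, so its values are set beside those of muscle differentiation. None of 25 muscle differentiation genes was past the threshold, but all 25 had negative log2 fold changes (median -0.38, from -0.78 to -0.16), where 6632 of all 12251 genes did. At an unadjusted p under 0.05 (limma) 10 of the 25 were lower, where 6.82% of all genes were. Their summed level was 7094, 8376 and 5740.0 RPKM in Psat1 cKO and 9066, 10442 and 7972 RPKM in Ctrl, ranges that overlap. Within Ctrl, Cpt1b and this sum followed the same order of libraries. Within Psat1 cKO both were highest in the second library, but Cpt1b was lowest in the first and the sum in the third. In a single pair of libraries, Psat1 cKO 2 had a larger sum than Ctrl 3 and a lower Cpt1b level. Cpt1b stood at 1.85 RPKM in Psat1 cKO 2 and at 2.61 RPKM in Ctrl 3. The sum is led by the most abundant genes, such as Mylpf and Acta1. For 3 of the 25, Ckm, Acta1 and Tnnt3, every Psat1 cKO value was below every Ctrl value. Of all genes 10.5% were, and nothing is read from this count. The part of differentiation in the Cpt1b difference was not tested.

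**Figure D4:**
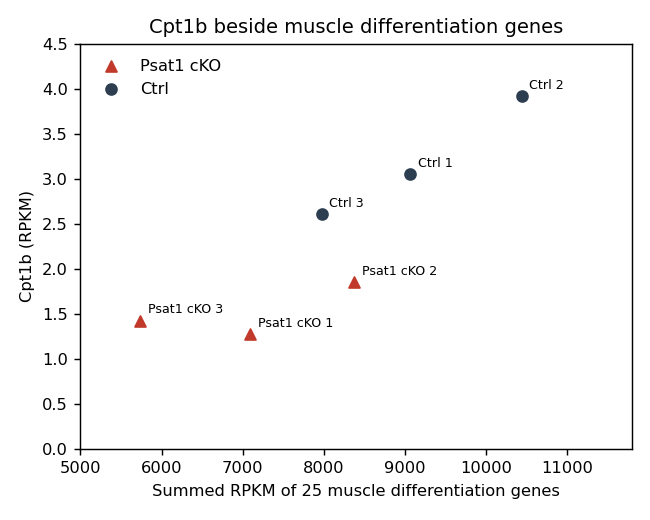
Cpt1b in RPKM (vertical axis) against the summed RPKM of 25 muscle differentiation genes (horizontal axis, which does not start at 0). Each point is 1 library, Psat1 cKO as red triangles and Ctrl as dark circles. Every Psat1 cKO library lies below every Ctrl library in Cpt1b, and the sums overlap between the groups.

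Markers of other cells moved with the genotype in part. Of 13 fibro-adipogenic progenitor markers, genes of the stromal cells of muscle, 7 were tested and 4 were higher and 0 lower (limma, adjusted p under 0.05), where 1.8% of all genes were higher, and the summed level of the 13 was 69.4 to 74.6 RPKM in Psat1 cKO and 37.4 to 47.5 RPKM in Ctrl. The 4 were Pdgfra, Cd34, Smoc2 and Mfap5, each without overlap of the groups. Pdgfra, the receptor that defines these cells, had 1.63, 2.87 and 2.71 RPKM in Psat1 cKO and 0.510, 0.326 and 0.376 RPKM in Ctrl (log2 fold change 1.66, SE 0.18, limma adjusted p = 0.00934). The sum of the 13 rests mainly on Gsn and Cd34. Gsn averaged 39.73 RPKM in Psat1 cKO and 31.01 RPKM in Ctrl, with overlapping groups (limma, adjusted p = 0.329). Cd34 averaged 16.6 RPKM in Psat1 cKO and 6.13 RPKM in Ctrl. Ly6a overlapped too, at a log2 fold change of 0.16 (limma, adjusted p = 0.659). Dcn was higher without overlap, at 1.16, but not past the threshold. All 7 tested had positive log2 fold changes. Of the markers below the filter, Lum averaged 0.0951 RPKM in Psat1 cKO and 0.0251 RPKM in Ctrl, and Pi16 and Dpt were at or near 0 in every library. Of 9 smooth muscle and pericyte markers 6 were tested, and 2 were higher and 0 lower, where 1.8% of all genes were higher. They were Tagln, averaging 94.9 RPKM in Psat1 cKO and 33.7 RPKM in Ctrl, and Mcam, averaging 10.6 and 5.1 RPKM. The sums of the 9 were 291 to 380 RPKM in Psat1 cKO and 188 to 339 RPKM in Ctrl. These sums rest mainly on Acta2, which averaged 214 and 198 RPKM with overlapping groups. Of 8 myoblast markers 2 were lower, Pax7 and Myf5, where 0.49% of all genes were. Cre is driven from the Pax7 locus in Psat1 cKO alone, so the Pax7 level cannot be told apart from an effect of that allele. The others overlapped between the groups, though all 8 had negative log2 fold changes. The sums of the 8 were 1138 to 1297 RPKM in Psat1 cKO and 1361 to 1523 RPKM in Ctrl. The part of these shifts in the Cpt1b difference was not tested. The adipocyte sum was 0.416 to 5.50 RPKM in Psat1 cKO and 0.569 to 1.28 RPKM in Ctrl, nearly all of it Fabp4. Endothelial, immune and Schwann cell lists had 3, 2 and 2 genes tested and 0 past the threshold, with sums of 3.73 to 11.4, 11.98 to 18.3 and 1.43 to 3.28 RPKM in Psat1 cKO and of 2.71 to 5.05, 16.8 to 23.0 and 1.28 to 1.88 RPKM in Ctrl. The highest endothelial sum was in Psat1 cKO 3, which also held the highest Fabp4, and Emcn stood there at 6.68 RPKM. Of the endothelial genes tested, Cdh5 was higher without overlap at 0.80 (limma, adjusted p = 0.0845), while Emcn and Pecam1 overlapped.

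The genes whose levels were most like those of Cpt1b were ranked by Pearson's r of log2 of RPKM + 0.5 over the 6 libraries among the 10242 genes averaging 2 RPKM or more, as a description. Pak1, a p21-activated kinase, came first with r = 0.987, at 65.4, 69.1 and 67.3 RPKM in Psat1 cKO and 83.4, 94.0 and 81.7 RPKM in Ctrl. Gpsm2, Cdh6, Rchy1 and Zfp105 followed with r between 0.981 and 0.978. Of the other members Hadha and Acadl were nearest, with r = 0.816 and r = 0.747. After the mean of each group was subtracted, which leaves only the differences between replicates, the leading genes were Spry4, Mapk9, Map2k3, Cd36 and Capn1, with r between 0.998 and 0.988. Cd36, the fatty acid translocase, had 2.15, 3.47 and 2.60 RPKM in Psat1 cKO and 3.53, 4.90 and 2.55 RPKM in Ctrl. Hadha and Acadl then had r = 0.075 and r = 0.365, so their likeness to Cpt1b lay mostly in the difference between the genotypes. With 6 libraries such values carry little precision.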

How the data were processed

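Poly(A) libraries used 500 ng of RNA each, per the labels' protocols. Tools listed, without their roles, in the submitters' processing notes are TopHat2 2.1.1, Trim Galore 0.6.6 and Partek, and the build is mm10. How genes were annotated and counted is not given in the sources used here. RPKM values deposited by the authors exist for 25220 genes in 6 libraries. Their deposited comparison gives, per the file headers, group means on the log2 scale of RPKM + 0.001, a ratio, a signed score for the fold change (the negative inverse of a ratio below 1) and p-values with q-values.

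Here the 12251 genes averaging 0.5 RPKM or more were fitted on log2 of RPKM + 0.5 by limma 3.58.1 (R 4.3.3, lmFit and trended eBayes), with genotype as the term, and Benjamini-Hochberg adjusted p under 0.05 over all of them was the threshold. Members and lists were chosen with earlier results of these data known. Named genes are the members, the 3 lowest p of each pathway list, low genes of defining function, neighbours of Cpt1b and genes most like it. Groups followed the titles. Depth was estimated from 2413 single-exon genes, where 34.6% to 41.6% of values of up to 20 reads lay within 0.02 of a whole read, against a median of 2.74% to 3.06% at other depths, so whole reads were not recovered for nearly all genes and no count test was run. At those depths 3 reads in a transcript of 1 kb were worth 0.0694 to 0.154 RPKM, for counting error only. Positions are from RefSeq for GRCm38.p6 and transcripts from GENCODE M21, on the assembly that mm10 names. Sequences were aligned with Biopython 1.88, and tables handled in Python 3.11.15 with pandas 2.3.3, numpy 2.4.6 and matplotlib 3.10.9. The fit was also run on data simulated from its own gene means and spreads, with independent noise. That run checked the code only, since differences of sex and depth between libraries were not simulated. Alternatives were pseudocounts, filters, scalings, a replicate block, no variance trend, array weights, the Xist and Y-linked split and each library left out.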

Additional observations from a re-analysis of the deposited data

How the results depend on the processing

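The pseudocount of 0.001 and the sum of Cpt1b with Gm44502 were chosen after the data were seen. Under 20 alternatives Cpt1b had log2 fold changes of -1.07 to -0.70 (groups that do not overlap could not turn in sign when libraries were left out) and was past the threshold in 10; it was outside in 5 of 6 fits leaving out 1 library, without a filter, with the split as covariate, within each side of it and in the sum with Gm44502. Cpt1b minus Cpt1a moved by less than the spread between replicates in all 14 alternatives run (-0.99 to -0.63). Its groups do not overlap either, so leaving out libraries could not turn its sign. This contrast chose the set, so nothing is read from its steadiness. No other member passed in any alternative. Signs turned for Pdk4 (array weights -0.021, Xist libraries -0.12, leaving out 1 library -0.055 to 0.12), Cpt1a (Xist libraries 0.038), Slc25a20 (leaving out 1, -0.033 to 0.13) and Acadm (leaving out 1, -0.048 to 0.0053).

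Of all genes, 220 were higher and 60 lower. Without a filter, where 20767 genes were tested, these were 1 and 3, within the Xist libraries 46 and 26, within the Y-linked libraries 42 and 14, and leaving out 1 library 49 to 173 and 12 to 55. Under the replicate block 121 genes were lower. Same-numbered libraries correlated at 0.20, -0.03 and 0.17 in their deviations from group means, and differently numbered ones at -0.21 to 0.067. Pairs 1 and 3 thus lay above every crossed value and pair 2 did not. The labels give no pairing, so the numbers were not taken as pairs, and whether replicates were paired was not tested. Of the other pathway genes, 0 passed; 2 were lower under the replicate block (Fabp3, Acsl1), 2 with the split as covariate (Acot2, Pdk2), 1 with array weights (Acot2), 1 within the Xist libraries (Fabp3), and leaving out 1 library gave 0 to 1 higher (Angptl4) and 0 to 1 lower (Acot2 or Fabp3). The causes were not tested. Scaling moved the median of all genes by under 0.01. Depth limits low genes, and Cpt1b had about 80 reads in Psat1 cKO 3.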
